A study of Canis lupus with 20 samples.

Results

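VWA8 and BDH1 are nuclear genes whose proteins work in mitochondria. Their transcripts were measured in the left atrium and left ventricle of dogs, and each gene was described on all of its probe sets, the groups of short probes that stand for a transcript on the array. Of the 42924 probe sets of the array that are not controls, 7 carry either gene as their single symbol, 2 for VWA8 and 5 for BDH1. These are 2 genes of the 15115 that have a probe set with a single symbol. All 7 probe sets passed the filter on low signals. Both genes were chosen by their ventricular difference between uninephrectomized and sham-operated dogs. For VWA8 the choice rested on probe set CfaAffx.8080.1.S1_s_at, and for BDH1 on CfaAffx.20670.1.S1_s_at. Values of that ventricular difference are therefore given as a description, with no test.

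The animals were described as normal dogs, with age, breed and sex not given in the sources used here, and had the right kidney removed (uninephrectomy) or a sham operation. Heart tissue was taken when the animals were sacrificed, 12 weeks later in both arms. Each chamber was examined after each operation, which makes 4 groups of 5 arrays. There were 6 dogs per operation, but 5 samples of a chamber were hybridized, each on its own array, so SDs are between samples.

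VWA8 carries a von Willebrand factor A domain together with ATPase modules of the AAA+ class, the protein machines that use ATP to remodel other proteins, and it is imported into mitochondria. BDH1 is the mitochondrial D-beta-hydroxybutyrate dehydrogenase, which interconverts beta-hydroxybutyrate and acetoacetate with NAD as the cofactor. In the heart this reaction is the first step of burning ketone bodies, before OXCT1 attaches coenzyme A to acetoacetate and ACAT1 splits the product into acetyl-CoA for the citric acid cycle.

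Signals are on a log2 scale, so 1 unit is a doubling, and the arrays had medians from 2.33 to 2.39. Signals of different probe sets are not compared, because each probe set has its own affinity. The chamber labels were checked with the myosin light chains. Atrium minus ventricle, the ventricular MYL2 and MYL3 differed by -10.34 ± 0.40 and -7.39 ± 0.51 (SE), and the atrial MYL7 and MYL4 by 2.23 ± 0.09 and 6.38 ± 0.76, all called at a limma adjusted p under 0.05.

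VWA8 was low in atrium and high in ventricle on its main probe set, CfaAffx.8080.1.S1_s_at, the one with the higher mean over all arrays. In sham atrium arrays 1 to 5 read 3.84, 3.82, 4.52, 3.89 and 3.38, a mean of 3.89 ± 0.41 (SD, n = 5). In uninephrectomized atrium they read 4.01, 3.51, 4.16, 3.73 and 3.74, a mean of 3.83 ± 0.26 (SD, n = 5). The atrial groups lay within each other's range, and all 10 atrial signals stood above the median of their array. In sham ventricle the arrays read 6.60, 6.71, 5.73, 5.96 and 6.27, a mean of 6.25 ± 0.41 (SD, n = 5). In uninephrectomized ventricle they read 7.48, 7.97, 7.997, 6.85 and 7.73, a mean of 7.61 ± 0.47 (SD, n = 5). The lowest uninephrectomized ventricular array, 6.85, lay above the highest sham one, 6.71, so the ventricular groups did not overlap, and every ventricular array lay above every atrial one.

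The second VWA8 probe set, CfaAffx.8082.1.S1_s_at, had low signals throughout. Sham atrial arrays read 2.75, 2.43, 2.33, 2.20 and 2.24 (mean 2.39 ± 0.22, SD, n = 5), and uninephrectomized atrial arrays 2.80, 3.20, 2.71, 2.05 and 3.05 (mean 2.76 ± 0.44, SD, n = 5). Sham ventricular arrays read 3.69, 2.88, 2.77, 2.95 and 2.94 (mean 3.04 ± 0.37, SD, n = 5), and uninephrectomized ventricular arrays 3.52, 3.78, 4.19, 4.35 and 3.04 (mean 3.78 ± 0.53, SD, n = 5). Here the chambers overlapped, and so did the ventricular groups, because sham array 1 lay above 2 of the uninephrectomized arrays. Of the 10 atrial signals, 2 in the sham and 4 in the uninephrectomized group exceeded their array's median.

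BDH1 was also low in atrium and high in ventricle. On its main probe set, Cfa.11318.1.A1_at, sham atrial arrays read 3.85, 4.96, 4.00, 5.32 and 4.51, a mean of 4.53 ± 0.62 (SD, n = 5). Uninephrectomized atrial arrays read 4.96, 4.91, 4.12, 5.22 and 4.56, a mean of 4.75 ± 0.43 (SD, n = 5). Sham ventricular arrays read 8.36, 7.76, 8.14, 8.04 and 8.36, a mean of 8.13 ± 0.25 (SD, n = 5), against 7.87, 7.78, 8.57, 8.41 and 8.52 after uninephrectomy, a mean of 8.23 ± 0.37 (SD, n = 5). The ventricular groups thus overlapped almost fully on this probe set, and the chambers did not overlap at all.

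On the BDH1 probe set behind the choice of the gene, CfaAffx.20670.1.S1_s_at, the atrium was at the low end. Its 10 atrial arrays lay between 1.74 and 2.03, with means of 1.82 ± 0.06 in sham and 1.92 ± 0.14 in uninephrectomized atrium (SD, n = 5 each), and none exceeded its array's median. Sham ventricular arrays read 3.38, 3.60, 2.93, 3.14 and 3.59 (mean 3.33 ± 0.29, SD, n = 5), and uninephrectomized ventricular arrays 3.43, 3.80, 4.66, 4.69 and 4.10 (mean 4.13 ± 0.55, SD, n = 5). The ventricular groups overlapped through uninephrectomized array 1, which lay below 2 sham arrays. The atrial mean of 1.867 lay under the filter minimum of 1.871, so this probe set was tested because of its ventricular signal.

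The other 3 BDH1 probe sets had the same order of the chambers, with a wide spread in ventricle. CfaAffx.20668.1.S1_at ranged from 2.10 to 2.65 in atrium, from 3.03 to 5.68 in sham ventricle (mean 4.36 ± 1.05) and from 4.27 to 6.50 in uninephrectomized ventricle (mean 5.20 ± 0.92, SD, n = 5 each). CfaAffx.20668.1.S1_x_at ranged from 1.84 to 2.40 in atrium, from 3.23 to 4.89 in sham ventricle (mean 4.14 ± 0.65) and from 3.96 to 5.60 in uninephrectomized ventricle (mean 4.62 ± 0.71). Cfa.18370.1.S1_s_at ranged from 1.88 to 2.28 in atrium, from 2.32 to 3.31 in sham ventricle (mean 2.87 ± 0.45) and from 2.94 to 3.85 in uninephrectomized ventricle (mean 3.29 ± 0.38). On all 3 the ventricular groups overlapped. Sham array 3 was the lowest of its group and uninephrectomized array 3 the highest on each of them. Of the 5 BDH1 probe sets, only the main one had all 10 atrial arrays above their array's median, so atrial levels on the other 4 are at or near the low end of the scale and their chamber differences may be understated.

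**Figure D1:**
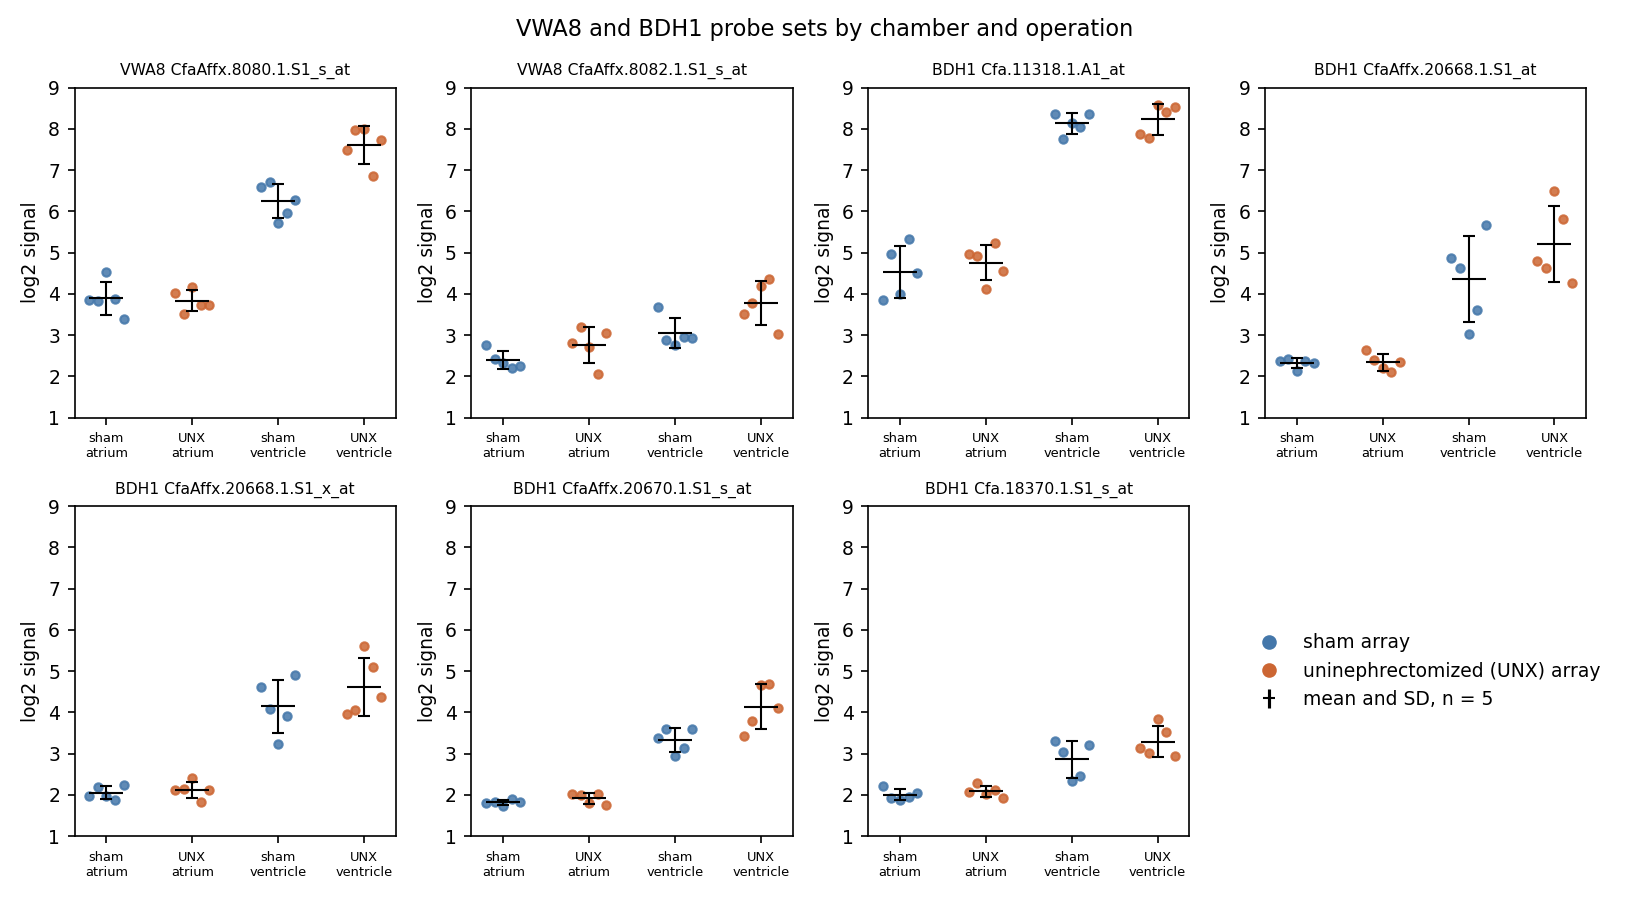
Log2 signal (vertical axis) of each VWA8 and BDH1 probe set in atrium and ventricle after sham operation or uninephrectomy (UNX). Points are arrays and bars the mean and SD of 5 arrays. Ventricular points lie above the atrial points, with overlap on CfaAffx.8082.1.S1_s_at, and only VWA8 CfaAffx.8080.1.S1_s_at separates the ventricular groups (lowest uninephrectomized array 6.85, highest sham array 6.71).

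The chamber comparison, atrium minus ventricle averaged over the operations, asks where in the heart these genes are expressed, and it does not use the difference between operations that chose them. Both genes were lower in atrium. The main BDH1 probe set differed by -3.54 ± 0.18 (SE; 95% CI -3.93 to -3.16), an 11.6-fold lower signal in atrium (adjusted p = 3.62e-11). The main VWA8 probe set differed by -3.07 ± 0.17 (SE; 95% CI -3.42 to -2.72), an 8.39-fold lower signal (adjusted p = 6.07e-11). Counted from the lowest difference, these were ranks 40 and 61 of 30047 tested probe sets.

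The 6 probe sets that passed the filter in both chambers were called lower in atrium, at adjusted p under 0.05 in limma. Of all tested probe sets 18.7% were called lower and 20.4% higher in atrium, 39.2% in either direction. The probe sets of 1 gene share their target, so they are not independent. CfaAffx.20668.1.S1_at differed by -2.45 ± 0.30 (5.46-fold, adjusted p = 2.60e-06) and its _x_at partner by -2.29 ± 0.21 (4.91-fold, adjusted p = 7.42e-08). Cfa.18370.1.S1_s_at differed by -1.04 ± 0.13 (2.05-fold, adjusted p = 4.45e-06). The second VWA8 probe set differed least, by -0.83 ± 0.17 (1.78-fold, adjusted p = 0.000685). On 5 of the 6 every atrial array lay below every ventricular array, against 3.53% of all tested probe sets; the exception was CfaAffx.8082.1.S1_s_at. CfaAffx.20670.1.S1_s_at, which passed the filter through its ventricular signal, had a difference of -1.87 ± 0.13 (SE), given with no test and against an atrial level at the low end of the scale.

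The fit shares 1 estimate of the spread over the 4 groups, while CfaAffx.20668.1.S1_at, for instance, had an SD of 0.11 in sham atrium and 1.05 in sham ventricle. Across all tested probe sets 52.2% of the chamber calls were higher in atrium (6137 higher, 5628 lower), and with the arrays shifted to the same median 33.2% were (4685 higher, 9435 lower). The median difference over all tested probe sets was -0.01, and -0.09 after that shift, small beside the differences of both genes.

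Within each operation the same direction was seen, given here as a description because the ventricular arrays chose the genes. The main VWA8 probe set differed by -2.36 ± 0.23 (SE) among sham and by -3.78 ± 0.23 among uninephrectomized arrays, lower in atrium. The main BDH1 probe set differed by -3.60 ± 0.26 and -3.48 ± 0.26, and CfaAffx.20670.1.S1_s_at by -1.51 ± 0.19 and -2.22 ± 0.19.

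Markers of cell types moved with the chamber as well. In bulk tissue, fewer cells of a type and less RNA per cell cannot be told apart. The counts that follow stand beside 18.7% of all tested probe sets called lower and 20.4% called higher in atrium. Of 14 measured cardiomyocyte markers 10 were called lower in atrium and 0 higher, with a median difference of -0.35, and LDB3, a Z-disc protein, differed most (-1.01 ± 0.17). The mean of the cardiomyocyte list per array lay between 12.75 and 12.90 in atrium and between 13.04 and 13.29 in ventricle. Of 11 fibroblast markers 10 were called higher in atrium, with a median difference of 1.23, and the list mean per array ranged from 7.99 to 9.14 in atrium and from 7.21 to 7.77 in ventricle. Of 9 adipocyte markers 5 were called higher and 1 lower. Among those higher, CIDEC had ventricular means of 1.90 in sham and 1.83 in uninephrectomized dogs, around the filter minimum of 1.87. It was therefore tested through its atrial signal. Among 11 endothelial markers 3 were called lower. Smooth muscle and pericyte markers were mixed, with 4 of 9 called higher and 3 lower. Macrophage markers had 1 of 11 called in each direction, lymphocyte markers 1 of 6 lower, and of 4 blood markers 0 were called. The part of cell type makeup in the chamber difference of VWA8 and BDH1 was not tested.

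The comparison of uninephrectomized with sham atrium used other arrays than those that chose the genes. No tested probe set of either gene passed the test. The main VWA8 probe set differed by -0.06 ± 0.23 (SE; 95% CI -0.55 to 0.43, adjusted p = 0.980) and the main BDH1 probe set by 0.22 ± 0.26 (SE; 95% CI -0.32 to 0.77, adjusted p = 0.899). The intervals leave room for a 1.47-fold higher and a 1.35-fold lower VWA8 signal. For BDH1 they leave room for a 1.71-fold higher and a 1.25-fold lower signal. The second VWA8 probe set differed by 0.37 ± 0.24 (95% CI -0.13 to 0.88, adjusted p = 0.801), and the other 4 BDH1 probe sets by 0.01 to 0.10. Atrial signals of these 4 were at or near the low end of the scale, which limits what their differences can show. Of them, CfaAffx.20670.1.S1_s_at (0.10 ± 0.19, SE) passed the filter through its ventricular signal and is given with no test. The rest had a limma adjusted p from 0.955 to 0.998. Of all tested probe sets 0% were called by limma (0 of 30047, with 2010 at an unadjusted p under 0.05).

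In ventricle, where the genes were chosen, the main VWA8 probe set was 1.35 ± 0.23 (SE) higher after uninephrectomy, a 2.55-fold higher mean signal, and it was higher in all 5 uninephrectomized arrays than in any sham array. Over all tested probe sets 0.396% had every uninephrectomized ventricular array above every sham one, and 0% were called (0 of 30047 by limma, with 2005 at an unadjusted p under 0.05). Nothing is read from these shares for VWA8, which was chosen on this contrast. The second VWA8 probe set was 0.73 ± 0.24 higher, 1.66-fold.

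The 5 BDH1 probe sets gave unequal ventricular differences. The probe set behind the choice was 0.81 ± 0.19 (SE) higher after uninephrectomy, a 1.75-fold higher mean, while the main one differed by 0.10 ± 0.26. CfaAffx.20668.1.S1_at differed by 0.84 ± 0.42, its _x_at partner by 0.47 ± 0.29 and Cfa.18370.1.S1_s_at by 0.42 ± 0.18. All 7 differences of VWA8 and BDH1 were above 0, which is no test because the genes were chosen here; 48.5% of all tested probe sets were above 0, with a median of -0.00. From the highest difference downwards, VWA8 CfaAffx.8080.1.S1_s_at stood at rank 21 of 30047, BDH1 CfaAffx.20670.1.S1_s_at at rank 163 and BDH1 Cfa.11318.1.A1_at at rank 6780.

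**Figure D2:**
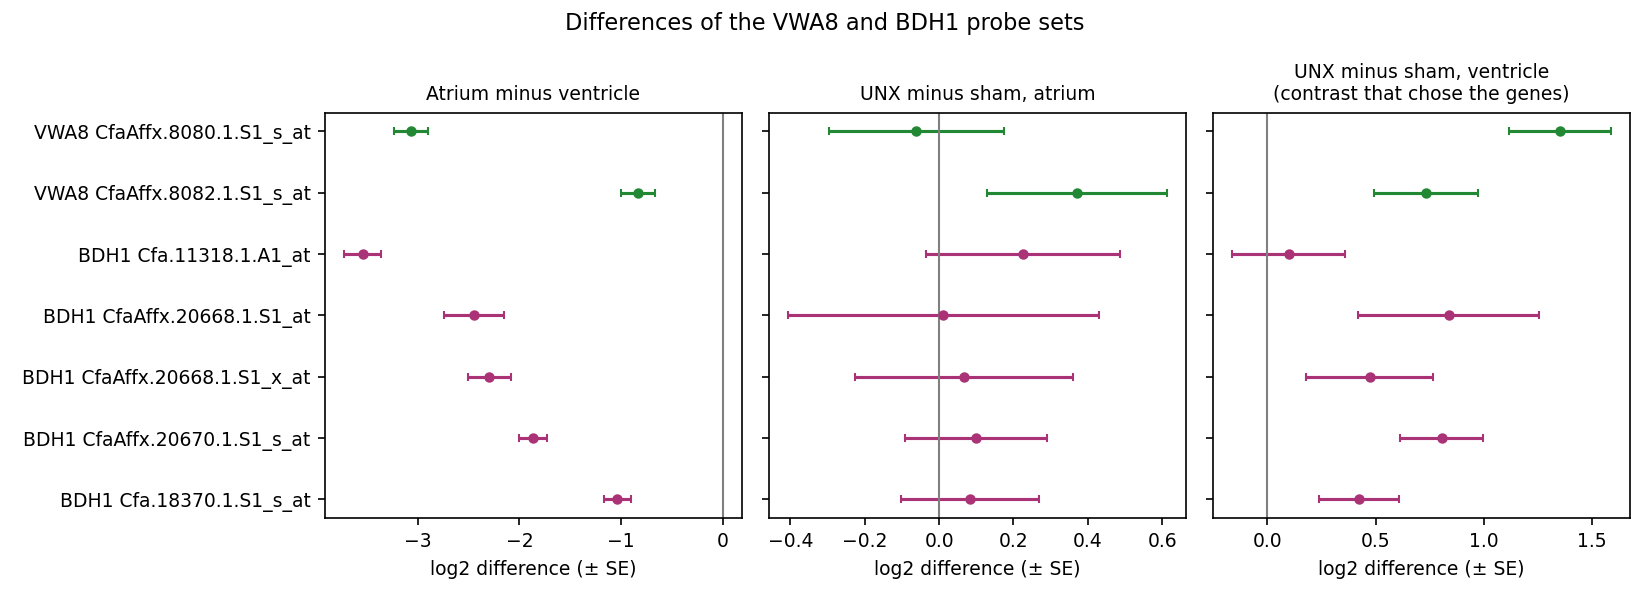
Log2 differences of the 7 probe sets, with SE, for atrium minus ventricle averaged over operations, for uninephrectomized minus sham atrium and for uninephrectomized minus sham ventricle. The chamber differences run from -3.54 to -0.83, the atrial differences between operations from -0.06 to 0.37, and the ventricular ones, which chose the genes and carry no test, from 0.10 to 1.35.

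Levels of cell type markers and of RNA quality were set beside these differences. In ventricle 0 markers of any cell type were called between operations. Of all 30047 tested probe sets 0 were called there, so this count says nothing about the markers. The cardiomyocyte list mean per array lay between 13.04 and 13.29 in sham and between 13.08 and 13.28 in uninephrectomized ventricle, and the fibroblast list mean between 7.31 and 7.74 and between 7.21 and 7.77. The 3' gap is the mean log2 signal of the 3' controls for ACTB, GAPDH and EEF1A minus that of their middle and 5' probe sets, and it grows when transcripts are broken or copied short. In sham ventricle it was 3.54, 3.45, 4.39, 4.16 and 3.94 (mean 3.90 ± 0.40, SD, n = 5), and in uninephrectomized ventricle 3.40, 3.59, 3.08, 3.10 and 3.94 (mean 3.42 ± 0.36, SD, n = 5). The gap was thus smaller after uninephrectomy by a mean difference of -0.47, in groups that overlapped (exact permutation test, two-sided, p = 0.103). In atrium the difference was -0.23 (exact permutation test, two-sided, p = 0.317).

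Arrays with a small gap tended to read higher on several of the probe sets. Sham arrays 3 and 4, with the widest gaps of their group, were the lowest sham arrays on CfaAffx.20668.1.S1_at, and uninephrectomized arrays 3 and 4, with the narrowest, the highest there. With the gap as a covariate in the fit, the ventricular difference of VWA8 CfaAffx.8080.1.S1_s_at was 1.30 ± 0.27 (SE), and that of CfaAffx.8082.1.S1_s_at was 0.36 ± 0.21. For BDH1 it was 0.60 ± 0.20 on CfaAffx.20670.1.S1_s_at, 0.13 ± 0.30 on Cfa.11318.1.A1_at, 0.22 ± 0.37 on CfaAffx.20668.1.S1_at, 0.12 ± 0.29 on its _x_at partner and 0.12 ± 0.15 on Cfa.18370.1.S1_s_at. The values of 3 BDH1 probe sets and of the second VWA8 probe set were thus smaller by more than 1.5 times with the gap than without it. The chamber difference of CfaAffx.8082.1.S1_s_at was -0.54 ± 0.15 with the gap in the fit (adjusted p = 0.00922). With a gap that leaves out the dim 5' controls of EEF1A and ACTB, chosen after seeing the data, it was -0.99 ± 0.14 (adjusted p = 2.87e-05), so the choice of gap set the direction in which it moved.

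**Figure D3:**
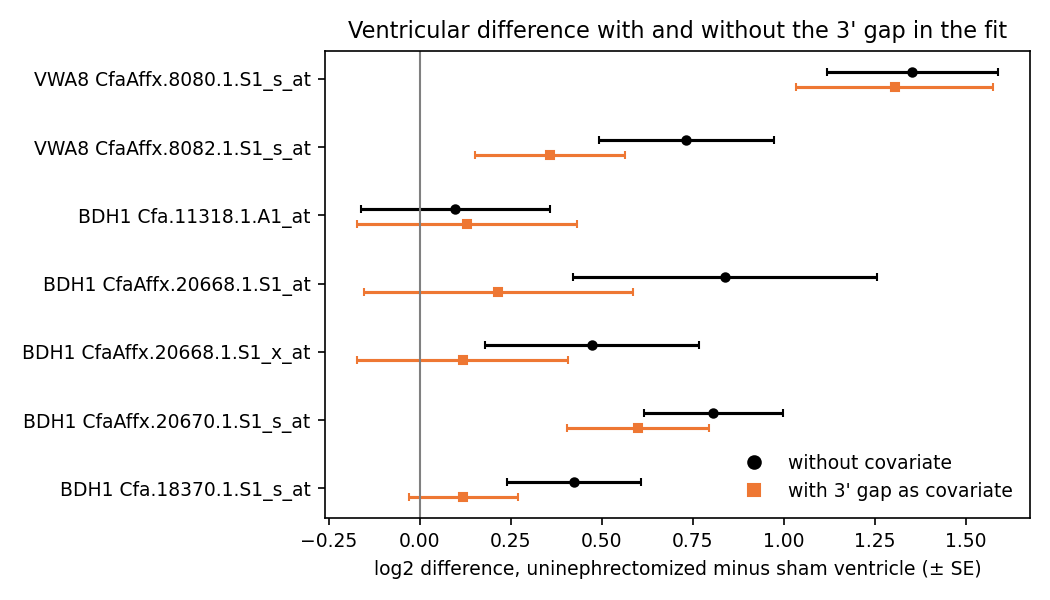
Uninephrectomized minus sham ventricle, log2 difference with SE, of the 7 probe sets without (circles) and with (squares) the 3' gap of the control probe sets in the fit. VWA8 CfaAffx.8080.1.S1_s_at goes from 1.35 to 1.30 and BDH1 CfaAffx.20668.1.S1_at from 0.84 to 0.22.

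Deviations from the group means, which do not hold the difference that chose the genes, were set against each other within a chamber. No relation between VWA8 and BDH1 on their main probe sets passed the test. Pearson's r was -0.13 over the 10 ventricular arrays (Spearman's rho 0.01, permutation p adjusted over 6 relations 0.907 and 1) and -0.39 over the 10 atrial arrays (rho -0.27, adjusted permutation p 0.863 and 1). Without the 2 arrays farthest from the median VWA8 deviation, r was 0.03 and -0.33. No relation of the gap with either main probe set passed the test in either chamber, with r from -0.31 to 0.26 and adjusted permutation p of at least 0.863.

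A further 28 ventricular relations, added after the data were seen, compared all 7 probe sets and the gap. Of the 21 pairs of probe sets 4 passed an adjusted permutation p of 0.05 for both r and rho, all between BDH1 probe sets. CfaAffx.20668.1.S1_at followed Cfa.18370.1.S1_s_at (r 0.957, rho 0.927, adjusted permutation p 0.0113 and 0.0207; r 0.968 without the 2 farthest arrays) and its _x_at partner (r 0.929, rho 0.879, adjusted permutation p 0.0113 and 0.0223; r 0.858 without them). The _x_at probe set also followed Cfa.18370.1.S1_s_at (r 0.902) and CfaAffx.20670.1.S1_s_at (r 0.863), with r of 0.843 and 0.831 without the 2 farthest arrays. The suffixes _x_at and _s_at mark probes that can match more than 1 transcript, so these probe sets may share targets.

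The main BDH1 probe set followed the other 4 with r from 0.422 to 0.669 and rho from 0.333 to 0.564, and none of these passed (adjusted permutation p of r from 0.153 to 0.346). The 2 VWA8 probe sets had r of -0.00 (rho 0.115, adjusted permutation p 0.997 and 0.833). The gap was related to Cfa.18370.1.S1_s_at by r (-0.852, adjusted permutation p 0.0480, and -0.775 without the 2 farthest arrays) but not by rho (-0.782, adjusted permutation p 0.110). With CfaAffx.20668.1.S1_at (r -0.767, rho -0.697) and CfaAffx.8082.1.S1_s_at (r -0.741, rho -0.588) the adjusted permutation p of r was 0.0683 and 0.0682.

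**Figure D4:**
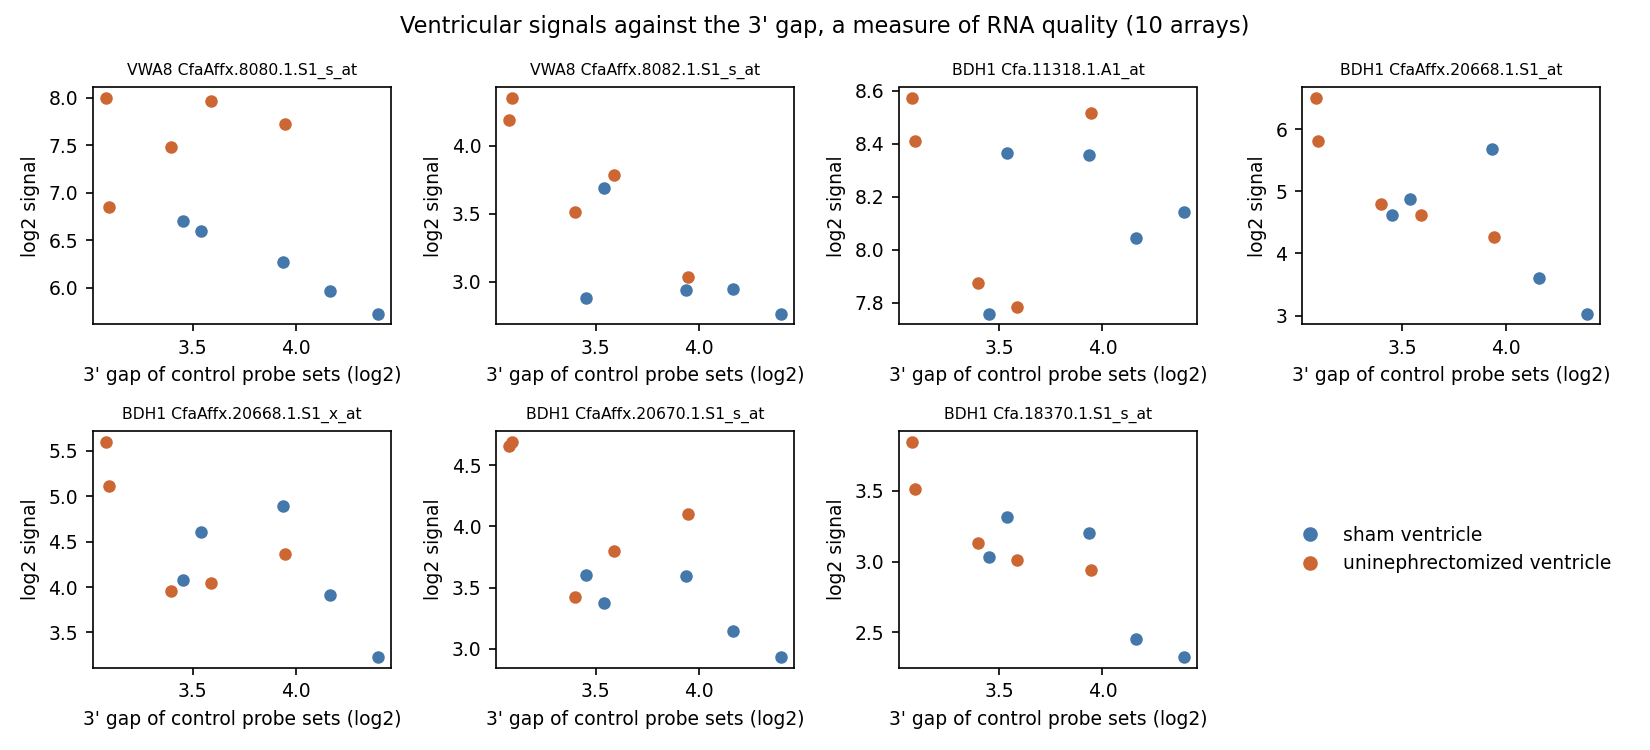
Log2 signal of each probe set (vertical axis) against the 3' gap of the control probe sets (horizontal axis, log2) on the 10 ventricular arrays, coloured by operation. Cfa.18370.1.S1_s_at and CfaAffx.20668.1.S1_at fall as the gap widens (r of the deviations -0.852 and -0.767), while the main BDH1 probe set does not (-0.02).

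The genes whose signals were most like those of VWA8 and BDH1 followed the chamber. For each gene, the probe set with the highest Pearson r of log2 values over the 20 arrays was taken, among 11422 genes. These arrays share the 4 group means, so r is a description. Most like VWA8 were LEAP2, a peptide that blocks the ghrelin receptor (r 0.957), CLPP, the protease subunit of a mitochondrial matrix complex (0.955), ANKRD23, a muscle ankyrin repeat protein (0.954), DELE1, which relays mitochondrial stress (0.948), and FYCO1, an autophagosome adaptor (0.946). Most like BDH1 were MYL2 (0.985), CAST, the calpain inhibitor calpastatin (0.978), PLIN2, a lipid droplet coat protein (0.975), GAS6, a ligand of TAM receptor kinases (0.972), and FGF13, a modulator of sodium channels (0.971). BDH1 ranked 14 among the genes most like VWA8, and VWA8 146 among those most like BDH1. These ranks took whichever probe set of the ranked gene had the highest r, which need not be its main one. Both genes were chosen on the ventricular difference between operations, which these signals hold, so nothing is read from the ranks. The main probe sets of both genes had r 0.902 with each other.

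With the group means taken out, other genes led. For VWA8 they were PIGH, of GPI anchor synthesis (r 0.816), MRPS7, a mitochondrial ribosomal protein (0.805), SAR1B, a GTPase of COPII vesicles (0.782), NARF (0.777) and RTEL1, a telomere helicase (0.774). For BDH1 they were TSSK4 (0.813), STAR, which carries cholesterol into mitochondria (0.774), DRD3, a dopamine receptor (0.748), GPM6A (0.740) and LOC477528 (0.734). All 5 genes most like BDH1 in this way had chamber means under 3.2, at the low end of the scale. Among those most like VWA8, RTEL1 (means of 1.81 in atrium and 1.95 in ventricle) and NARF (2.21 and 3.01) were low as well. On these deviations the main VWA8 and BDH1 probe sets had r -0.26.

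The list of ketone body metabolism and transport held 13 other tested genes, 1 probe set each. It includes FABP3, a fatty acid binding protein; without it 7 of 12 were called lower in atrium and 0 higher, with a median of -0.37. With it, 8 of 13 were called lower in atrium and 0 higher, with a median of -0.53, where 18.7% of all tested probe sets were called lower and the median was -0.01. FABP3, which is abundant in heart muscle, differed by -0.95 ± 0.07 (SE), and SLC16A7, the monocarboxylate transporter MCT2, by -0.91 ± 0.17 (adjusted p = 3.04e-09 and 0.000357). The succinyl-CoA ligase subunits SUCLG2, SUCLA2 and SUCLG1 differed by -0.82 ± 0.11, -0.71 ± 0.07 and -0.21 ± 0.05. These subunits are also in the citric acid cycle list, and all of them are among the 7 called lower. The counts of the 2 lists are therefore not separate. OXCT1, the next enzyme after BDH1, differed by -0.57 ± 0.12 (adjusted p = 0.00105), from group means of 9.33 and 9.59 in sham and uninephrectomized atrium to 9.86 and 10.21 in ventricle. ACAT1, the thiolase that follows, differed by -0.53 ± 0.07, and the transporter SLC16A1 (MCT1) by -0.55 ± 0.18 (adjusted p = 5.61e-06 and 0.0189). SLC16A3, BSG, SLC16A6, AACS and HMGCLL1 were not called, with differences from -0.10 to 0.24. In size, the difference of the main BDH1 probe set, -3.54, exceeded that of each of these 13. The smallest difference on a BDH1 probe set was -1.04 ± 0.13, on Cfa.18370.1.S1_s_at, so how far BDH1 stood from these genes depends on the probe set.

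**Figure D5:**
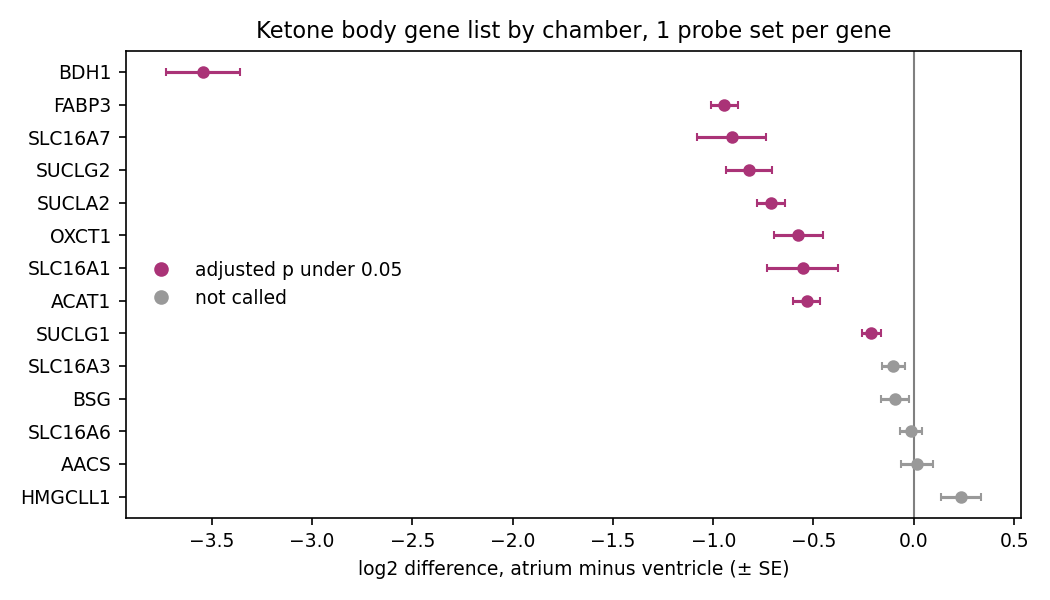
Atrium minus ventricle, log2 difference with SE averaged over operations, of genes of ketone body metabolism and transport, 1 probe set per gene; coloured points have an adjusted p under 0.05. BDH1 lies at -3.54, FABP3 at -0.95, OXCT1 at -0.57 and ACAT1 at -0.53.

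After uninephrectomy 0 of these 13 genes were called in either chamber, where 0 of all 30047 tested probe sets were called. In ventricle 9 of the 13 had a difference above 0, with a median of 0.06. Of all tested probe sets 48.5% were above 0 there, with a median of -0.005. The ventricular values were 0.34 ± 0.17 (SE) for OXCT1 (adjusted p = 0.753), 0.41 ± 0.25 for SLC16A7 (adjusted p = 0.767) and -0.04 ± 0.10 for ACAT1 (adjusted p = 0.970). In atrium 4 of the 13 were above 0, with a median of -0.02, against 48.95% and a median of -0.003 over all tested probe sets.

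Mitochondrial ATPases and quality control proteins are the class nearest to VWA8. Of 26 tested 9 were called lower in atrium and 4 higher, with a median of -0.21, where 18.7% of all tested probe sets were lower and 20.4% higher. Lower in atrium were CLPP on its list probe set (-1.26 ± 0.09, SE), BCS1L, an assembly factor of respiratory complex III (-0.96 ± 0.30), MIPEP, which trims imported proteins (-0.70 ± 0.12), and LONP1, the matrix Lon protease (-0.69 ± 0.22). Higher in atrium were IMMP2L, an inner membrane peptidase (0.49 ± 0.07), the rhomboid protease PARL (0.24 ± 0.05), the prohibitin PHB (0.23 ± 0.05) and the inner membrane protease YME1L1 (0.12 ± 0.04). Of the other listed genes with a von Willebrand A domain 5 were tested. VWA7 was called lower (-0.89 ± 0.14), on low signals with group means from 2.25 to 3.36, and PARP4 higher (0.32 ± 0.08). Between operations 0 genes of either list were called in atrium or ventricle, where 0 of all 30047 tested probe sets were called.

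Other lists of mitochondrial supply and fuel use are given beside the same shares of all tested probe sets, 18.7% lower and 20.4% higher. Of 19 regulators of mitochondrial biogenesis 7 were called lower and 2 higher (median -0.21). Among them the muscle regulator PERM1 differed by -1.30 ± 0.13 (SE), the kinase subunit PRKAA2 by -1.08 ± 0.21, the fatty acid sensor PPARA by -0.71 ± 0.19 and TFAM, which packages mitochondrial DNA, by -0.62 ± 0.15. SIRT1 and PPARD were higher, by 0.34 ± 0.13 and 0.22 ± 0.06, PPARD with a ventricular level under the filter minimum. Of 23 genes of the citric acid cycle and of pyruvate use 17 were called lower and 0 higher (median -0.24). The pyruvate genes of this list were PDHA1, PDHB, DLAT, PDK1, PDK2, PDK4 and PC. Among these PDK2, a kinase that restrains pyruvate dehydrogenase, differed by -0.85 ± 0.19 and its target's subunit DLAT by -0.52 ± 0.11. The list also holds the succinyl-CoA ligase subunits SUCLG2, SUCLA2 and SUCLG1, which were counted among the ketone body genes as well. A list of 11 genes held short-chain dehydrogenases, the class of BDH1, and related enzymes, not all of them mitochondrial. Of these 3 were lower (DHRS4, HSDL2 and HADH, -0.64 to -0.43) and 2 higher (DHRS7C and HSD17B10, 0.42 and 0.18), which is near those shares. Of 15 peroxisomal genes 5 were lower and 2 higher. In ventricle 0 genes of these 4 lists were called between operations, as were 0 of all 30047 tested probe sets. The list medians ran from 0.06 to 0.11 against -0.00 over all tested probe sets.

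Of the 7 tested genes that neighbour VWA8 or BDH1, 0 were called lower in atrium by limma, and 0 also at an unadjusted p under 0.05, and 2 were called higher. Of all tested probe sets 18.7% were called lower and 20.4% higher. The neighbours were the nearest genes on each side that have a probe set with a single symbol. Beside VWA8, RGCC (-0.06 ± 0.12, SE), NAA16 (0.19 ± 0.09) and AKAP11 (-0.05 ± 0.26) were not called and DGKH, a diacylglycerol kinase, was higher in atrium (0.53 ± 0.12, adjusted p = 0.00154). Beside BDH1, APOD, a lipocalin, was higher in atrium (1.37 ± 0.23, adjusted p = 0.000108), PPP1R2 (-0.07 ± 0.05) and DLG1 (0.05 ± 0.15) were not called, and MELTF was under the filter. Between operations RGCC had differences of 0.53 ± 0.16 in atrium and 0.55 ± 0.16 in ventricle, neither called (adjusted p = 0.637 and 0.558), and NAA16 one of -0.37 ± 0.13 in ventricle (adjusted p = 0.627).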

How the data were processed

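Per the labels, Trizol was used for extraction, and 100 ng of RNA went into the Affymetrix IVT Express labelling. The deposited values are log2 signals from 0.435 to 15.0, taken without change; the authors' summary, background and normalization methods are not given in the sources used here. The number of arrays limits the precision.

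The table holds 43035 probe sets. Setting aside 111 controls and the dimmest 30% (mean under 1.87) left 30047 to test. Symbols came from the supplied annotation table, in which 29254 probe sets other than controls have 1 symbol and 439 have several. Neighbours came from a RefSeq gene table of the assembly mCanLup2.hap1. The tests came from limma (version 3.58.1, R version 4.3.3), two-sided after eBayes, with a mean per group over all 20 arrays, 16 residual degrees of freedom and Benjamini-Hochberg adjustment over all tested probe sets. Called means an adjusted p under 0.05, and intervals are at 95%. The fit was tested on simulated data. Correlations used 100000 permutations within groups.

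The genes, 16 gene lists (pathways, cell type markers and a chamber check, each gene by its brightest probe set) and tests were chosen with earlier results of these data known. Genes were named by rule: all probe sets of both genes, the 5 genes most alike by each measure, up to 4 called members of a pathway list per direction, the ketone body genes, 2 neighbours per side and 4 myosin light chains. LDB3 was named after its value was seen. Marker lists covered blood, adipocytes, lymphocytes, macrophages, smooth muscle with pericytes, endothelium, fibroblasts and cardiomyocytes. The labels do not name the dog behind an array, so p-values measure the spread between these samples, which may be technical.

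The labels number the arrays without saying whether a number marks a dog. Deviations of same-numbered sham atrial and ventricular arrays correlated at 0.463, 0.226, 0.373, 0.295 and 0.209, so the data point to pairs there. Same-numbered uninephrectomized arrays had correlations from -0.235 to 0.115 and showed no pairs by number. The ventricular arrays most like uninephrectomized atrial arrays 1 to 5 were arrays 3, 4, 1, 5 and 2. The main fit used no pairing. The replicate blocks tried for the chamber comparison paired arrays by number after either operation. Alternatives were no filter or a stricter one, other normalization, replicate blocks, the 3' gap as a covariate and leaving out each array.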

Additional observations from a re-analysis of the deposited data

Results flagged for a closer look

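Of the 28 sets of 5 arrays examined (7 probe sets in 4 groups), 1 held an array far from the others. On VWA8 CfaAffx.8082.1.S1_s_at the highest sham ventricular array, array 1, read 3.69 and the next 2.95, so its distance to the nearest array was 0.802 of the group's range, above Dixon's critical value of 0.710 for 5 arrays. Chance marks about 1 in 20 such groups.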

How the results depend on the processing

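The 6 tested chamber differences kept their direction and their call under each of 30 alternatives, with adjusted p of at most 0.00922. The main VWA8 probe set ranged from -3.17 to -3.01 and the main BDH1 probe set from -3.64 to -3.46. In a fit with sham and uninephrectomized arrays paired by number as a fixed replicate block, these were -3.07 ± 0.18 and -3.54 ± 0.21 (SE), and 11900 probe sets were called against 11765; a random replicate block gave 12569. The blocks changed no call of these probe sets. Uninephrectomized arrays showed no pairs by number, so the blocks cannot test a pairing by dog in that arm. In atrium, the count of probe sets called between operations was 0 to 1 when 1 array was left out (1 without sham atrium array 5).

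Atrial differences between operations lay near 0, and 5 of them changed sign under some alternatives, none of them called. VWA8 CfaAffx.8080.1.S1_s_at ranged from -0.19 to 0.10 when 1 array was left out (0.10 without sham array 3, 0.02 without uninephrectomized array 2). BDH1 CfaAffx.20668.1.S1_at was -0.0185 with arrays shifted to the same median, -0.28 with the 3' gap as a covariate and -0.15 with the gap of the bright control probe sets only, an alternative chosen after seeing the data, and -0.0658 to 0.0711 when 1 array was left out. Its _x_at partner was -0.102 and -0.0423 with these gaps and -0.00281 to 0.14 when 1 array was left out. CfaAffx.20670.1.S1_s_at was -0.000161 with the gap, and Cfa.18370.1.S1_s_at -0.0616 and -0.000723 with the 2 gaps. The cause was not tested. When 1 ventricular array was left out, the described ventricular difference ranged from 1.22 to 1.54 for VWA8 CfaAffx.8080.1.S1_s_at, from 0.67 to 0.98 for BDH1 CfaAffx.20670.1.S1_s_at, from 0.51 to 1.17 for CfaAffx.20668.1.S1_at, from 0.23 to 0.66 for its _x_at partner and from 0.00405 to 0.21 for Cfa.11318.1.A1_at. In atrium, leaving out 1 array moved Cfa.11318.1.A1_at between 0.05 and 0.42 and Cfa.18370.1.S1_s_at between 0.03 and 0.13. Low signals limit the 4 dimmer BDH1 probe sets in atrium.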
